A study of Mus musculus with 19 samples.

Results

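The genes described here are 10 genes that were low in activated regulatory T cells (Tregs) lacking the NF-κB subunit c-Rel: Klrg1, Penk, Sema6d, Slc7a10, Slc24a3, Alox8, Fut10, Gucy1a3, Ica1 and Ier5l. They were picked by name because they were high in WT activated Tregs or low in activated Tregs without c-Rel, and they are 10 of 14818 genes with values in the table of sorted cells and 10 of 14290 in the table of stimulated cells. The values that chose them are therefore given as a description, without a test, and tests are given for the libraries that the choice did not use. RNA was sequenced from YFP+ Tregs of C57Bl/6 Foxp3-CRE-YFP mice in 19 libraries from 9 groups. The c-Rel-deficient cells came from Foxp3-CRE-YFP*c-Rel F/F mice, and the p65-deficient cells, reported in the sorted set, lacked the NF-κB subunit p65 (Foxp3-CRE-YFP*p65 F/F). The source labels of the c-Rel-deficient cells read c-Rel-/- in the stimulated set and c-RelKO in the sorted set. All groups, WT included, carry the Foxp3-driven CRE-YFP allele, and CRE follows the expression of Foxp3.

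In the sorted set, spleen and lymph node cells were separated by surface markers into aTregs, high for CD44, and rTregs, low for CD44, and RNA was taken without culture. It holds c-Rel-deficient aTregs (2 libraries), p65-deficient aTregs (2), WT aTregs (3), c-Rel-deficient rTregs (2), p65-deficient rTregs (2) and WT rTregs (2). In the stimulated set, Tregs were cultured for 16 hours on anti-CD3 coated at 5 µg/mL with soluble anti-CD28 at 1 µg/mL and IL-2 at 10 ng/mL. Its groups are WT cells with pentoxifylline (PTXF) at 500 µg/mL, c-Rel-deficient cells, and WT cells with water, the diluent of PTXF, with 2 libraries each. The labels do not say whether the c-Rel-deficient cells were given water, nor whether replicates came from separate mice, so p-values measure the spread between these libraries, which may be technical.

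Tregs restrain immune responses and depend on the transcription factor Foxp3, and resting cells become activated, tissue-seeking effector Tregs after antigen encounter. c-Rel, encoded by Rel, and p65, encoded by Rela, are NF-κB subunits that enter the nucleus after T cell receptor and CD28 signals and bind κB sites in DNA. Pentoxifylline is an inhibitor of phosphodiesterases that has been used to lower c-Rel activity in T cells.

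The 10 genes encode proteins of unlike roles. Klrg1 is an inhibitory receptor that binds cadherins and marks differentiated effector lymphocytes, Penk is the precursor of the enkephalin opioid peptides, and Sema6d is a transmembrane semaphorin that binds plexins. Slc7a10 carries small neutral amino acids and Slc24a3 exchanges sodium for calcium and potassium. Alox8 is a lipoxygenase that adds oxygen to polyunsaturated fatty acids, Fut10 belongs to the fucosyltransferases, and Gucy1a3, now named Gucy1a1, is a subunit of the nitric oxide receptor guanylate cyclase. Ica1 is a membrane-bending protein of vesicle traffic, and Ier5l is a relative of the immediate early gene Ier5.

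The genes lie on different chromosomes for the most part, as annotated on GRCm38, the assembly also called mm10. Klrg1 lies at chr6:122270596-122282882 on the minus strand, and Ica1 lies on the same chromosome and strand at chr6:8630527-8778488. Another 3 lie on chromosome 2 in separate places: Ier5l at chr2:30471537-30474219 on the minus strand, Sema6d at chr2:124089969-124667770 on the plus strand and Slc24a3 at chr2:145167754-145642166 on the plus strand. Penk is at chr4:4133531-4138819 on the minus strand, Slc7a10 at chr7:35186385-35201114 on the plus strand, Fut10 at chr8:31187331-31261738 on the plus strand, Gucy1a3 at chr3:82092427-82145789 on the minus strand, and Alox8 at chr11:69183932-69197843 on the minus strand.

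The 250 bases before a gene's start were read from RefSeq (GRCm38.p6) for the 7 of 10 genes with an entry, which gave 11 windows since some genes have several starts. Klrg1, Penk and Fut10 had none. A narrow κB motif, GGG and TTCC with any 3 bases between them, searched on both strands, was in 1 of the 11 windows, that of Slc7a10, and in 4.65% of all 32851 windows. Slc7a10 had the lowest c-Rel-deficient value relative to WT of all genes tested in aTregs, and its window (chr7:35186135-35186384, plus strand) is shown for that reason with the match in capitals. The window of Alox8 (chr11:69197844-69198093, minus strand), which does not hold these letters, is shown beside it.
Slc7a10: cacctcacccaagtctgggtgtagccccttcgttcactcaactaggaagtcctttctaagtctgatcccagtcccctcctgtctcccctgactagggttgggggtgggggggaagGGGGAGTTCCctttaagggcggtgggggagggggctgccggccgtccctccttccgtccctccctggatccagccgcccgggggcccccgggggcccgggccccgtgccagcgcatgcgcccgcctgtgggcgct
Alox8: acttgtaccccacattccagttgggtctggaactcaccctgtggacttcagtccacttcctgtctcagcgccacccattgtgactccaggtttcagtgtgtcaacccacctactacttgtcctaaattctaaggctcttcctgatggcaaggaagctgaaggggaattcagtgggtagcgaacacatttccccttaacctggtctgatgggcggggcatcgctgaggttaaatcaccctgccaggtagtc
The match in Slc7a10 begins at position -135 relative to the start. The broader form, GGG and CC with any 5 bases between them, which contains every narrow match, was in windows of Slc7a10 and Slc24a3 and in 45.8% of all windows. The cyclic AMP element TGACGTCA was in none of the 11 windows and in 1.55% of all, and its core TGACG was in a window of Ica1 and in 17.8% of all. Matches describe these letters in these windows, and binding was not measured.

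The targeted genes were read as a check of the labels. Rel, the gene deleted in c-Rel-deficient cells, was at 1.56 and 3.01 RPKM (reads scaled by gene length and library depth) in c-Rel-deficient aTregs, against 18.6, 21.3 and 22.01 RPKM in WT aTregs. In rTregs it was at 5.37 and 1.39 RPKM in c-Rel-deficient cells, against 10.9 and 20.5 RPKM in WT cells, so the label is less plain in c-Rel-deficient rTreg replicate 1. It was at 2.44 RPKM in replicate 1 of the stimulated c-Rel-deficient cells but at 24.96 RPKM in the library labelled replicate 2, against 55.1 and 55.8 RPKM in WT cells with water. Rela stood at 46.8 and 56.1 RPKM in p65-deficient aTregs, against 62.3 to 68.3 RPKM in WT aTregs, and at 69.4 and 59.9 RPKM in p65-deficient rTregs, against 71.5 and 69.0 RPKM in WT rTregs, so RNA of the gene as a whole does not separate the p65 label in rTregs. In aTregs Foxp3 was lower without c-Rel, with no overlap, at 53.5 and 64.6 RPKM, against 72.6, 101.6 and 90.7 RPKM in WT aTregs. In rTregs Foxp3 overlapped, at 73.6 and 28.1 RPKM in c-Rel-deficient cells, against 71.9 and 97.5 RPKM in WT cells. In stimulated cells it was at 218 and 274 RPKM with PTXF, 107 and 193 RPKM in c-Rel-deficient cells and 290 and 237 RPKM in WT cells with water, and the authors' deposited table gives a log2 fold change of -1.11 without c-Rel (adjusted p = 5.43e-05). The 7 listed Treg identity genes, Foxp3 among them, summed to 1072 to 1703 RPKM in stimulated c-Rel-deficient cells, against 1860 to 1895 RPKM in WT cells with water, and to 615 to 767 RPKM in c-Rel-deficient aTregs, against 682 to 805 RPKM in WT aTregs, which overlap. Their part in the differences of the 10 genes was not tested.

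In sorted aTregs all 10 genes were lower without c-Rel than in WT, and no c-Rel-deficient library reached the lowest WT library in any of them. The median difference over the 10 genes was -1.52 on the log2(RPKM + 0.5) scale, on which all differences here are given, against 0.01 over all 10656 genes tested. Groups that do not overlap with c-Rel-deficient aTregs lower made up 13.8% of all tested genes, but the 10 genes were chosen on this contrast, so nothing is read from their share.

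**Figure D1:**
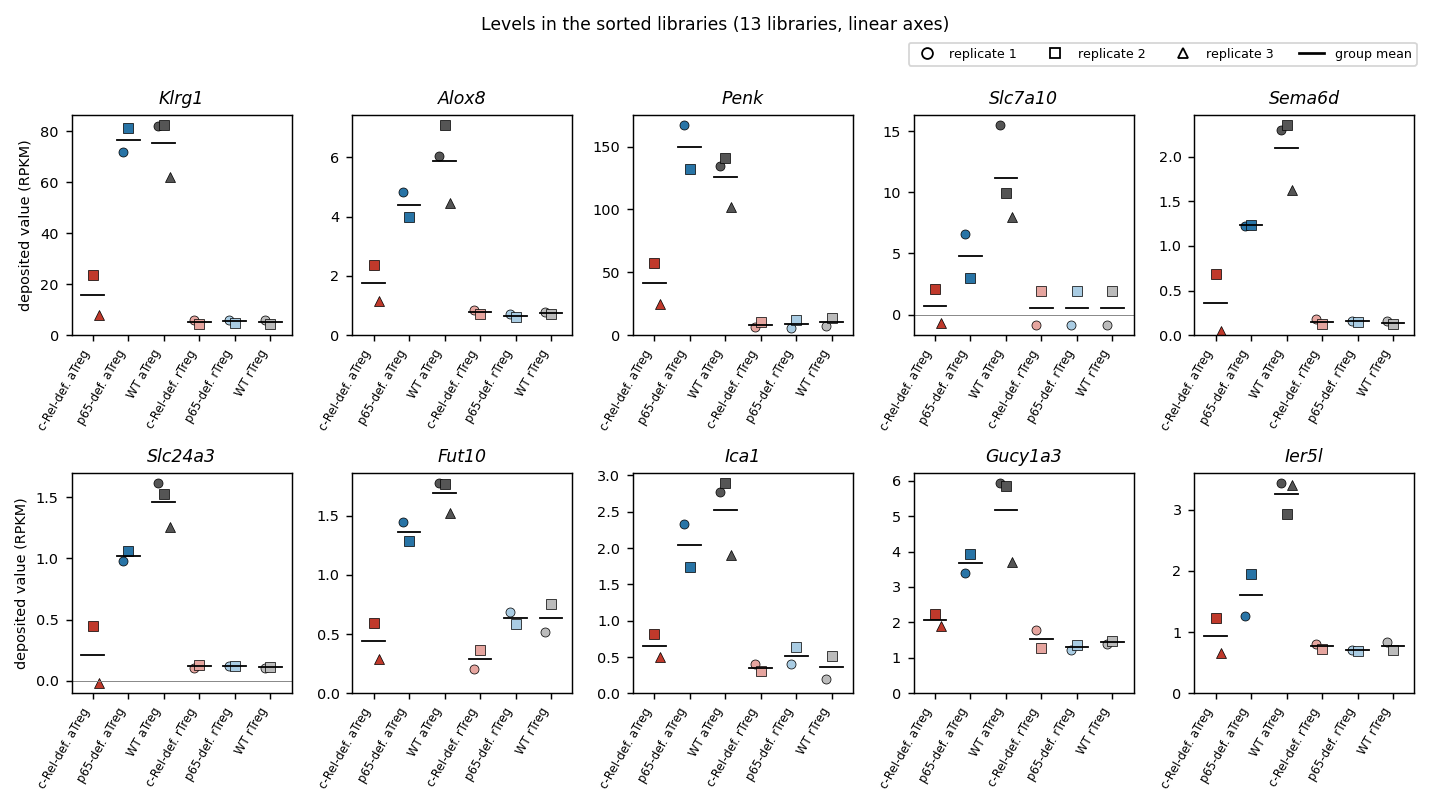
Deposited RPKM values (linear vertical axes) of the 10 genes in the 13 sorted libraries, by group, with 1 point per library, its shape giving the replicate number, and a line at the group mean. Klrg1 lies at 8.10 and 23.8 RPKM in c-Rel-deficient aTregs, against 62.0 to 82.3 RPKM in WT aTregs, and all 6 rTreg libraries lie at 4.38 to 6.13 RPKM.

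Among the surface and secreted products, Klrg1 stood at 23.8 and 8.10 RPKM in c-Rel-deficient aTregs, 72.0 and 81.4 RPKM in p65-deficient aTregs and 82.2, 82.3 and 62.0 RPKM in WT aTregs. Penk stood at 57.5 and 24.8 RPKM in c-Rel-deficient aTregs, 167 and 132 RPKM in p65-deficient aTregs and 134, 141 and 102 RPKM in WT aTregs. For both genes the p65-deficient libraries overlapped the WT range, and the difference without c-Rel was -2.38 for Klrg1 and -1.70 for Penk, against 0.03 and 0.26 without p65. Sema6d stood at 0.686 and 0.0422 RPKM in c-Rel-deficient aTregs, 1.22 and 1.24 RPKM in p65-deficient aTregs and 2.30, 2.35 and 1.63 RPKM in WT aTregs. Its groups formed 3 steps without overlap, with differences of -1.68 without c-Rel and -0.57 without p65.

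Of the transporters, Slc7a10 stood at 2.07 and -0.665 in c-Rel-deficient aTregs, 6.61 and 3.02 in p65-deficient aTregs and 15.5, 9.92 and 7.99 in WT aTregs, in adjusted RPKM. The sorted values went through an adjustment that the file headers do not describe, which leaves some below 0, and these were set to 0 before the logarithm. Slc7a10 ranked 1 of 10656 tested genes for its drop without c-Rel (-3.31), and its p65-deficient libraries also lay below all 3 WT libraries (-1.17). In rTregs its adjusted value was 1.92 in all 3 number-2 libraries, 1 of each genotype, and -0.876 in 2 of the 3 number-1 libraries, so a difference between genotypes could not be seen there. Slc24a3 stood at 0.445 and -0.0198 in c-Rel-deficient aTregs, 0.982 and 1.06 in p65-deficient aTregs and 1.61, 1.52 and 1.25 in WT aTregs, in the same unit. It too formed 3 steps without overlap, with differences of -1.51 without c-Rel and -0.37 without p65.

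Of the enzymes, Alox8 stood at 2.35 and 1.15 RPKM in c-Rel-deficient aTregs, 4.83 and 3.98 RPKM in p65-deficient aTregs and 6.04, 7.08 and 4.47 RPKM in WT aTregs. Fut10 stood at 0.595 and 0.290 RPKM in c-Rel-deficient aTregs, 1.44 and 1.29 RPKM in p65-deficient aTregs and 1.77, 1.77 and 1.53 RPKM in WT aTregs. Gucy1a3 stood at 2.22 and 1.90 RPKM in c-Rel-deficient aTregs, 3.41 and 3.93 RPKM in p65-deficient aTregs and 5.92, 5.84 and 3.72 RPKM in WT aTregs. The p65-deficient values of Alox8 and Gucy1a3 overlapped WT, and those of Fut10 lay just below it, with a difference of -0.23. Gucy1a3 had the smallest of the 10 differences without c-Rel (-1.12), next to Ggt7, a gene outside the list with -1.12 as well, and 56 other tested genes had a drop larger than that of Gucy1a3.

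Ica1 stood at 0.817 and 0.499 RPKM in c-Rel-deficient aTregs, 2.33 and 1.74 RPKM in p65-deficient aTregs and 2.77, 2.89 and 1.91 RPKM in WT aTregs, with p65-deficient values that overlapped WT. Ier5l stood at 1.23 and 0.655 RPKM in c-Rel-deficient aTregs, 1.27 and 1.95 RPKM in p65-deficient aTregs and 3.43, 2.92 and 3.40 RPKM in WT aTregs. For Ier5l both knockouts lay below every WT library, with differences of -1.40 without c-Rel and -0.85 without p65. Without p65, 8 of the 10 genes had a mean below WT in aTregs, 5 of them without overlap, where 11.7% of all tested genes did so, and the median difference was -0.36. Set directly against each other, c-Rel-deficient aTregs lay below p65-deficient aTregs without overlap in all 10 genes (17.0% of all tested genes), with differences between -2.41 for Klrg1 and -0.56 for Ier5l and a median of -1.14. Both comparisons reuse libraries that chose the genes and are descriptions.

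The 2 c-Rel-deficient aTreg libraries were not alike. All 10 genes were lower in replicate 3 than in replicate 2, where 57.2% of the 10656 tested genes were, although Rel itself was lower in replicate 2. Relative to the WT mean, the median over the 10 genes was -1.11 for replicate 2 and -1.95 for replicate 3. Markers of other cells also differed. The 6 listed natural killer and cytotoxic markers summed to 21.7 to 45.3 RPKM in c-Rel-deficient aTregs, 4.52 to 9.15 RPKM in p65-deficient aTregs and 3.65 to 9.43 RPKM in WT aTregs, and 3 of them lay above all WT aTregs without overlap and 1, Gzma, below. Klrb1c stood at 25.05 and 3.60 RPKM in c-Rel-deficient aTregs and at most at 2.88 RPKM in WT aTregs, Tyrobp at 11.7 and 7.41 RPKM against at most 2.01 RPKM, and Eomes at 1.84 and 1.95 RPKM against at most 0.582 RPKM, while Ncr1 stood at no more than 0.177 RPKM in either. The 9 myeloid and dendritic markers summed to 11.1 to 21.8 RPKM in c-Rel-deficient aTregs, 2.92 to 5.84 RPKM in p65-deficient aTregs and 3.81 to 8.37 RPKM in WT aTregs, and 4 of them lay above all WT aTregs without overlap and none below. Siglech stood at 4.34 and 2.97 RPKM in c-Rel-deficient aTregs and at most at 0.719 RPKM in WT aTregs. Fcer1g stood at 5.60 and 1.98 RPKM against at most 1.37 RPKM, and Itgax and Flt3 did likewise, while Cd14 stood at no more than 0.110 RPKM in either. Replicate 1 of WT aTregs, WT rTregs and p65-deficient rTregs shared the Siglech value of 0.719. For Klrb1c, replicate 1 of WT rTregs, p65-deficient rTregs and p65-deficient aTregs shared 2.79. Such tied adjusted values carry no level, and the Klrb1c value of 3.60 is near them. The part of these markers in the lower values was not tested, and in bulk RNA fewer cells of a type and less RNA per cell cannot be told apart.

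**Figure D2:**
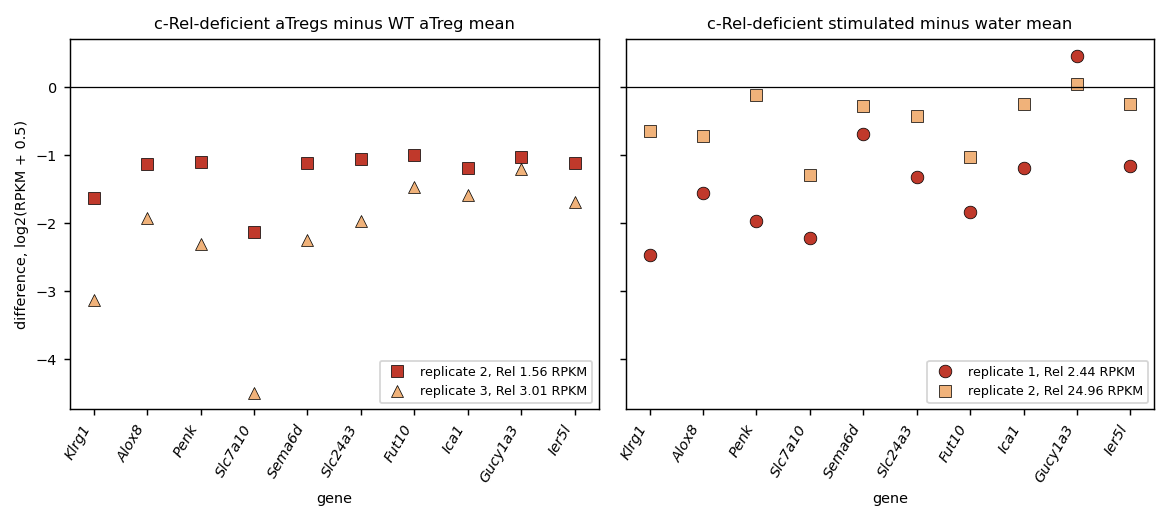
Difference of each c-Rel-deficient library from its WT mean, log2(RPKM + 0.5), for each gene, in sorted aTregs (left) and stimulated Tregs (right), with 1 point per library and the library's Rel level in the legend. In aTregs replicate 3 lies below replicate 2 for all 10 genes, and in stimulated cells replicate 1, with Rel at 2.44 RPKM, lies below replicate 2 for 9 of 10.

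The same loss was set against the difference between subsets within each genotype. In p65-deficient cells, whose libraries did not choose the genes, aTregs lay above rTregs without overlap for all 10 genes, where 27.2% of all tested genes did so. With limma and Benjamini-Hochberg adjustment over 10656 genes, 6 of the 10 passed an adjusted p of 0.05, all higher in aTregs, where 2.79% of all genes did so. Alox8, Sema6d, Slc24a3, Fut10, Ica1 and Ier5l, 6 of the 10, were below 1 RPKM in every rTreg library and entered the test through their aTreg levels alone, so these counts do not support a direction for the list. Klrg1 averaged 76.7 ± 6.7 RPKM in p65-deficient aTregs and 5.41 ± 0.84 RPKM in p65-deficient rTregs (SD, n = 2 each), a difference of 3.71 (SE 0.39, limma adjusted p = 0.00585). Penk averaged 150 ± 25 RPKM in p65-deficient aTregs and 8.91 ± 4.3 RPKM in p65-deficient rTregs (SD, n = 2 each), a difference of 4.07 (SE 0.45, limma adjusted p = 0.00585). The other genes that rose were Alox8 (2.07), Ica1 (1.32), Slc24a3 (1.29) and Gucy1a3 (1.21), with limma adjusted p between 0.00839 and 0.0434. With a pseudocount of 0.1 the calls of Slc24a3 (adjusted p = 0.098) and Ica1 (adjusted p = 0.0538) were lost. Sema6d (1.39, limma adjusted p = 0.0513), Slc7a10 (2.19, limma adjusted p = 0.256), Fut10 (0.72, limma adjusted p = 0.113) and Ier5l (0.79, limma adjusted p = 0.0883) did not pass. These calls rest on all 4 libraries: leaving out any 1 of them left 0 to 2 of the 10 genes and 0 to 11 of all genes called, while the median difference over the 10 genes stayed between 1.22 and 1.44.

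In c-Rel-deficient cells the same 10 genes differed far less between subsets. Their median difference was 0.32 in c-Rel-deficient cells, 1.36 in p65-deficient cells and 1.92 in WT cells, where the WT contrast and the c-Rel-deficient aTregs took part in the choice. Klrg1 (1.34) and Penk (2.14) kept the largest differences in c-Rel-deficient cells, and Slc7a10 (0.04), Slc24a3 (0.15) and Ier5l (0.16) the smallest. In c-Rel-deficient cells aTregs lay above rTregs without overlap for 5 of the 10 genes (21.9% of all tested genes), namely Klrg1, Penk, Alox8, Ica1 and Gucy1a3, and in WT cells for all 10 (19.0%). A list of 26 activated Treg genes, among them Icos, Ctla4, Ccr8 and Il1rl1, had all 26 above 0 in all 3 genotypes. Their medians were 1.57 in c-Rel-deficient cells, 1.68 in p65-deficient cells and 1.89 in WT cells. In the untested contrast of c-Rel-deficient with WT aTregs, Ccr8 (-1.61), Ebi3 (-1.46), Areg (-1.21) and Il1rl1 (-0.89) of that list were lower without overlap. So were Tigit (-0.94), Batf (-0.87), Tnfrsf4 (-0.72), Gata3 (-0.58) and Tnfrsf18 (-0.48), while Lag3 (0.51) was higher without overlap. Icos (-0.10), Ctla4 (0.15) and the rest of that list overlapped WT aTregs. The drops of Ccr8, Ebi3 and Areg were larger than that of Gucy1a3 (-1.12), so lower values without c-Rel were not particular to the 10 genes. In p65-deficient cells 13 of the 26 passed the limma test, all higher in aTregs, such as the chemokine receptor Cxcr3 (3.35) and the IL-33 receptor Il1rl1 (2.69).

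**Figure D3:**
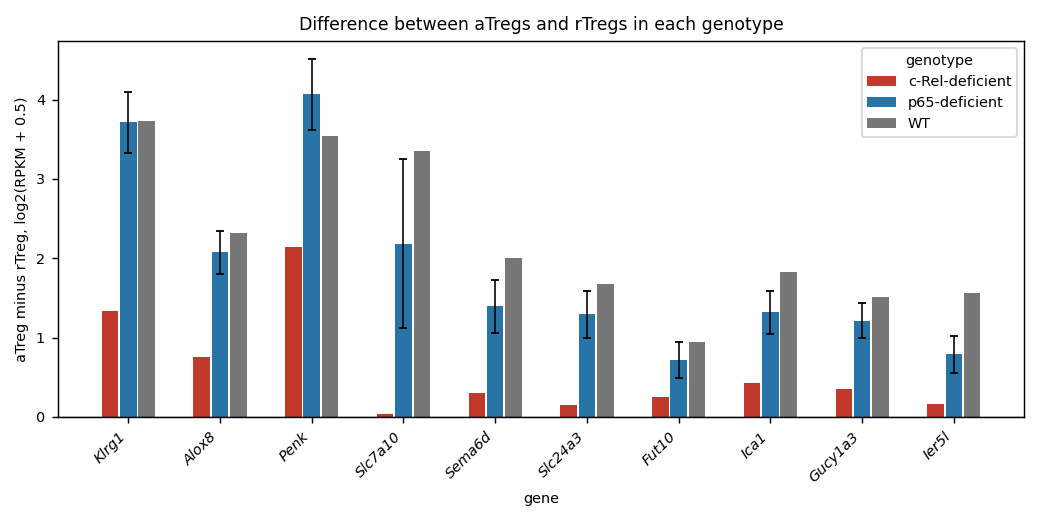
Bars give the difference between aTregs and rTregs, log2(RPKM + 0.5), for each gene in c-Rel-deficient, p65-deficient and WT cells, with error bars of 1 SE from limma for the p65-deficient cells, the only ones tested. The c-Rel-deficient bars are the shortest for all 10 genes, from 0.04 for Slc7a10 to 2.14 for Penk, and the p65-deficient bars run from 0.72 to 4.07.

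Within rTregs no gene was called in either knockout, which does not show that levels were alike. With limma 0 of 10656 genes passed in either comparison, 0 of the 10 listed among them (0% of all genes), while 775 genes without c-Rel and 726 without p65 had an unadjusted p under 0.05. WT rTregs may have been what high levels were judged against when the genes were picked. Fut10 stood at 0.207 and 0.369 RPKM in c-Rel-deficient rTregs, 0.690 and 0.582 RPKM in p65-deficient rTregs and 0.521 and 0.758 RPKM in WT rTregs. It was the one gene of the 10 whose c-Rel-deficient rTregs lay below WT without overlap (14.2% of all tested genes), with a difference of -0.53 (SE 0.23, limma adjusted p = 0.681). Penk stood at 6.15 and 10.9 RPKM in c-Rel-deficient rTregs and 7.57 and 13.7 RPKM in WT rTregs, ranges that overlap. The authors' deposited table gives log2 fold changes of -1.25 for Penk (p = 0.000482) and -1.23 for Fut10 (p = 0.000817) in c-Rel-deficient rTregs, with p-values of 0.55 and 0.757 after adjustment over all genes. Without p65, Alox8 and Gucy1a3 lay below WT without overlap (17.2% of all tested genes) and Slc24a3 above it (13.9%), with differences between -0.11 and 0.02.

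Stimulated cells gave libraries apart from those sorted by subset. Here 9 of the 10 genes could be tested, since Sema6d did not reach 1 RPKM in 2 libraries. Slc7a10, Fut10 and Ica1 reached 1 RPKM in WT cells alone. The RPKM values of the 10 genes came out as whole reads within 0.005 of a read, so each value's counting error is known: 95% Poisson intervals are given for low values, and they cover counting error only. The depth of the other 5 libraries was 0.682 to 0.949 of that of replicate 1 with water.

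**Figure D4:**
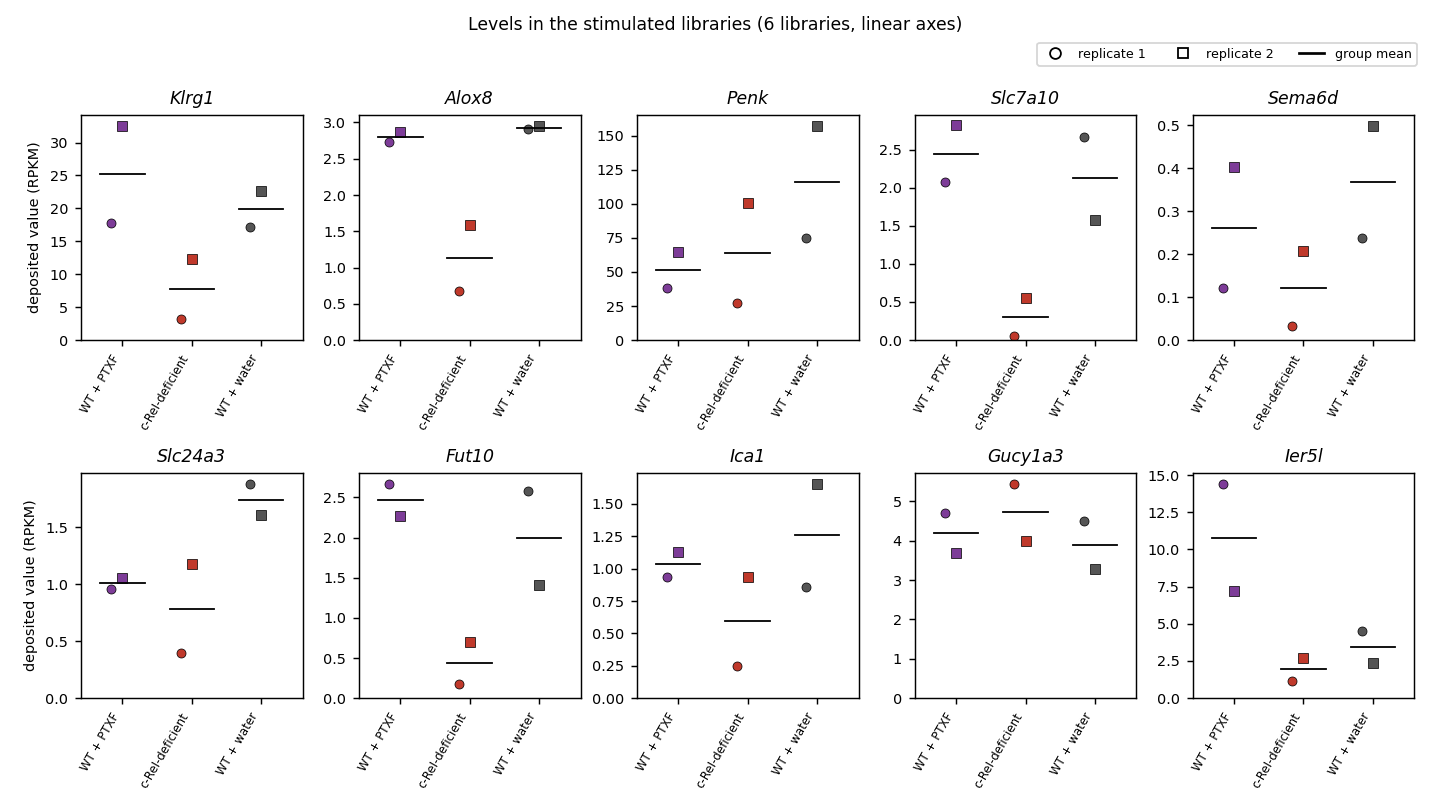
Deposited RPKM (linear vertical axes from 0) of the 10 genes in the 6 stimulated libraries, with 1 point per library, its shape giving the replicate number, and a line at the group mean. For Klrg1, Alox8, Slc7a10 and Fut10 both c-Rel-deficient libraries lie below both PTXF and both water libraries, and Ier5l is highest in the 2 PTXF libraries, at 14.4 and 7.18 RPKM.

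Without c-Rel, 9 of the 10 genes had a mean below WT cells with water, with a median difference of -0.96 against 0.06 over the 9945 genes tested. Klrg1 stood at 3.16 and 12.4 RPKM in c-Rel-deficient cells, against 17.1 and 22.6 RPKM in WT cells with water (-1.56, SE 0.55). Slc7a10 stood at 0.0512 RPKM (1 read, interval 0.0013 to 0.285 RPKM) and 0.549 RPKM (10 reads, 0.263 to 1.01 RPKM) in c-Rel-deficient cells, against 2.67 and 1.58 RPKM (57 and 32 reads) in WT cells with water (-1.76, SE 0.38). Fut10 stood at 0.179 and 0.695 RPKM (13 and 47 reads) in c-Rel-deficient cells, against 2.58 and 1.41 RPKM (205 and 106 reads) in WT cells with water (-1.43, SE 0.36). For these 3 genes the groups did not overlap.

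Alox8 stood at 0.671 and 1.59 RPKM in c-Rel-deficient cells, against 2.90 and 2.96 RPKM in WT cells with water (-1.13, SE 0.29). Slc24a3 stood at 0.394 and 1.17 RPKM in c-Rel-deficient cells, against 1.88 and 1.60 RPKM in WT cells with water (-0.87, SE 0.34). Sema6d, with 4 and 24 reads in c-Rel-deficient cells and 32 and 64 reads in WT cells with water, was at 0.0323 and 0.208 RPKM against 0.237 and 0.499 RPKM (-0.48). These also did not overlap, so that 6 of the 10 genes, the untested Sema6d among them, lay lower without overlap. Of all tested genes, which leave out Sema6d, 16.3% did so. Slc7a10 and Fut10 were below 1 RPKM in both c-Rel-deficient libraries and passed the filter through WT cells alone, so the count is not support for the list. Penk overlapped, at 27.6 and 100.5 RPKM in c-Rel-deficient cells against 75.1 and 158 RPKM in WT cells with water (-1.04), as did Ica1 (-0.72), Ier5l (-0.71) and Gucy1a3. Gucy1a3 was the exception in direction, at 5.45 and 4.01 RPKM in c-Rel-deficient cells against 4.51 and 3.28 RPKM in WT cells with water (0.25, SE 0.24).

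None of these differences passed limma, which called 0 of 9945 genes (0%) without c-Rel. An unadjusted p under 0.05 was reached by 791 of the 9945 genes, 5 of the 9 listed genes tested among them. Slc7a10, Fut10 and Ica1 entered this test through WT cells alone, so the count does not support a direction for the list. The limma adjusted p of the 9 genes tested lay between 0.423 and 0.816. The size of the differences depended on the c-Rel-deficient library: the median over the 10 genes was -1.44 without replicate 2 and -0.35 without replicate 1. Replicate 1, which held less Rel, was the lower for 9 of the 10 genes, where 45.4% of tested genes were. The authors' deposited table gives Klrg1 (-1.78, adjusted p = 4.22e-06), Fut10 (-1.94, adjusted p = 0.0041) and Slc7a10 (-2.16, adjusted p = 0.00771) below 0.05 after adjustment over all genes, all lower, where 1.66% of its 14290 genes are lower at that threshold, and Alox8 at -1.36 (adjusted p = 0.0539). Plasma cell markers summed to 0.456 to 0.516 RPKM in c-Rel-deficient cells, against 11.2 to 16.7 RPKM in WT cells with water. The 9 myeloid and dendritic markers summed to 3.23 to 3.92 RPKM, against 7.24 to 9.65 RPKM. The sums of the 5 listed natural killer and cytotoxic markers overlapped between these groups. Of these 5, 1 lay above WT cells with water without overlap, Eomes, and 1 below, Tyrobp. Eomes stood at 19.02 and 2.09 RPKM in c-Rel-deficient replicates 1 and 2, against 0.824 and 2.01 RPKM with water. Tyrobp stood at 0.265 and 0.284 RPKM, against 1.78 and 1.53 RPKM. The part of all these markers in the differences was not tested.

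Pentoxifylline left most of the 10 genes near the level of cells with water, in a comparison where limma called 43.5% of 9945 genes. Of the 9 genes tested 1 passed, Ier5l, which was higher (19.6% of all genes were called higher and 23.9% lower), and the median difference over the 10 was 0.02. Ier5l stood at 14.4 and 7.18 RPKM with PTXF, against 4.51 and 2.35 RPKM with water, a difference of 1.50 (SE 0.44, limma adjusted p = 0.0285). The call was lost without a filter on low values (adjusted p = 0.0755), without PTXF replicate 1 (0.157) and without water replicate 2 (0.168). The authors' deposited table also gives Ier5l higher (1.51, adjusted p = 0.00334), where 9.77% of its genes are higher at that threshold. Among the 10, it was thus the one gene called under PTXF, and its direction was opposite to that without c-Rel, where its groups overlapped.

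Penk stood at 38.4 and 64.98 RPKM with PTXF, against 75.1 and 158 RPKM with water, without overlap, a difference of -1.11 (SE 0.60, limma adjusted p = 0.17). It passed when only these 2 groups entered the fit (adjusted p = 0.0447). Slc24a3 stood at 0.960 and 1.06 RPKM with PTXF, against 1.88 and 1.60 RPKM with water (-0.57, SE 0.34, limma adjusted p = 0.205). Alox8 was at 2.73 and 2.87 RPKM with PTXF and 2.90 and 2.96 RPKM with water (-0.06), so 3 of the 10 genes lay lower without overlap, where 38.3% of all tested genes did so. Klrg1 was at 17.8 and 32.6 RPKM with PTXF, Slc7a10 at 2.07 and 2.82 RPKM and Fut10 at 2.67 and 2.27 RPKM, ranges that overlap those with water.

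Rel RNA itself was at 93.5 and 79.9 RPKM with PTXF, against 55.1 and 55.8 RPKM with water. PTXF-treated cells were also compared with c-Rel-deficient cells, a comparison added after the values were seen. limma called 48.4% of 9945 genes, 21.6% higher with PTXF, and 5 of the 9 genes tested were called higher with PTXF: Ier5l (2.21, adjusted p = 0.00583), Slc7a10 (1.94, adjusted p = 0.00553), Klrg1 (1.84, adjusted p = 0.028), Fut10 (1.72, adjusted p = 0.00717) and Alox8 (1.08, adjusted p = 0.0204). Slc7a10 and Fut10 were below 1 RPKM in both c-Rel-deficient libraries and entered the test through WT cells alone, so the count is not support for the list. Without c-Rel-deficient replicate 1 these were 3 of the 10, with Klrg1 and Alox8 lost, and without PTXF replicate 2 the same 2 were lost. Without a filter on low values Klrg1 was lost as well (adjusted p = 0.0736). Penk (-0.08, adjusted p = 0.926) and Slc24a3 (0.30, adjusted p = 0.486), the genes at the low end with PTXF, did not pass.

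**Figure D5:**
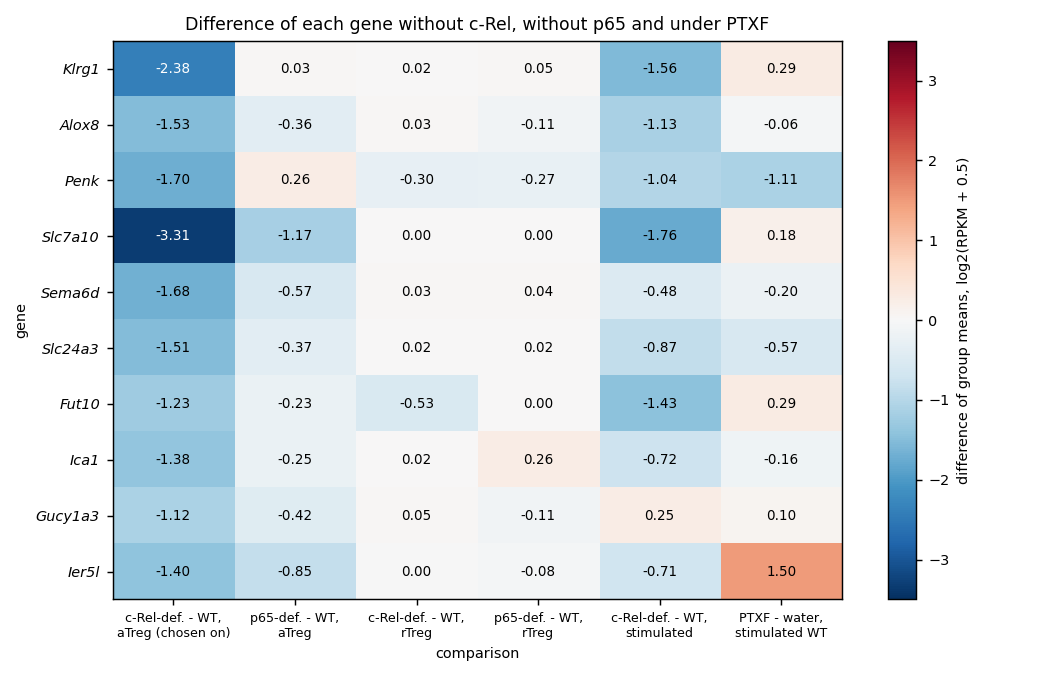
Differences of group means, log2(RPKM + 0.5), of each gene (rows) in 6 comparisons (columns), blue where the first-named group is lower and red where it is higher, with the value printed in each cell. The c-Rel columns for aTregs (the contrast the genes were chosen on) and stimulated cells are blue for 10 and 9 of the 10 genes, while the largest value with PTXF is 1.50 for Ier5l.

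Genes related to the 10 by family or pathway, 73 in all with 62 in the tables, did not follow them as a group. Of 34 related genes that passed the filter in sorted cells, 19 had a difference above 0 and 15 below 0 in c-Rel-deficient aTregs against WT aTregs. This contrast was given no test. In it the natural killer type receptors Klrd1 and Klrk1, relatives of Klrg1, lay above WT without overlap. They averaged 12.9 ± 9.9 and 8.39 ± 9.4 RPKM in c-Rel-deficient aTregs (SD, n = 2), against 2.42 ± 2.1 and 0.949 ± 0.83 RPKM in WT aTregs (SD, n = 3). The 2 c-Rel-deficient libraries thus lay far apart, and the summed natural killer and cytotoxic markers were also higher in them. The part of those markers here was not tested. Gucy1b3 (-0.66), a relative of Gucy1a3, and the semaphorin receptor Nrp1 (-0.96) lay below WT without overlap. Of the 30 tested in stimulated cells, limma called 0 without c-Rel, where 16 were below 0, and under PTXF it called 2 higher and 6 lower. Among the amino acid transporters, to which Slc7a10 belongs, the glutamine carrier Slc1a5 fell to 41.5 RPKM with PTXF, against 149 RPKM with water (-1.84, SE 0.14, limma adjusted p = 0.000524), and the cationic and neutral amino acid carrier Slc7a6 (-1.39) and the leucine carrier Slc7a5 (-0.95) fell too. Sema7a, a membrane-anchored semaphorin, averaged 1.85 RPKM with PTXF and 22.8 RPKM with water (-3.29, SE 0.32, limma adjusted p = 0.000726). Of the 34 related genes tested in sorted cells, 3 passed between p65-deficient aTregs and rTregs, all higher in aTregs: the carboxypeptidase Cpe (1.60), which trims neuropeptide precursors such as that of Penk, the semaphorin receptor Nrp1 (1.81) and the fucosyltransferase Fut7 (2.00).

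Across the 13 sorted libraries the 10 genes varied together. Pearson's r of log2(RPKM + 0.5) over the 45 pairs lay between 0.783, for Klrg1 and Slc7a10, and 0.995, for Sema6d and Slc24a3, with a median of 0.914. The libraries share 2 subsets and 3 genotypes, and the genes were chosen for this pattern, so these values describe the choice as much as the genes. Outside the list, the growth factor gene Fgf16 was among the 3 most like genes for Slc7a10, Sema6d, Slc24a3 and Fut10 (r between 0.928 and 0.986), and averaged 0.132 RPKM in c-Rel-deficient aTregs and 1.20 RPKM in WT aTregs. Naprt was most like Penk (r = 0.99), Pon3 most like Alox8 (r = 0.987) and Ggt7 most like Ica1 (r = 0.983), each over 13 libraries.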

How the data were processed

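For each set the authors deposited a table that holds 1 RPKM column per library. Per the file headers it also holds the authors' log2 fold changes and p-values; read counts were not used here. STAR, DESeq2 1.10.1 and mm10 are named in the submitters' processing notes, without their roles. The deposited sorted values are RPKM after an undescribed adjustment, treated as a score; 2.53% are below 0 and were set to 0, and their depth is unknown. Decimal commas were read as points, and 20 and 21 rows without values were left out.

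Differences were tested two-sided with limma 3.58.1 (R 4.3.3) on log2(RPKM + 0.5) with a mean-variance trend. A gene was tested where 2 or more libraries of the set reached 1 RPKM. Each fit held all groups of a set, and p-values were adjusted by Benjamini-Hochberg over all genes tested, with a threshold of 0.05. The fit was tested on simulated data. The authors' p-values were adjusted in the same way over their table. Of 11 comparisons, 6 were tested and 5, which share libraries with the choice of genes, were described. Alternatives were another pseudocount, filter, scaling or replicate block, only the groups compared, and leaving out each library. The 10 genes, the 26 activated Treg genes and the other lists were chosen with earlier results of these data known. Apart from the 10 genes, the text names Rel, Rela and Foxp3, up to 4 examples from each list and the 3 genes most correlated with each of the 10. Ggt7 as the next gene outside the list, single markers of other cells and further activated Treg genes were named after their values were seen.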

Additional observations from a re-analysis of the deposited data

Results flagged for a closer look

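Slc24a3, the sodium, potassium and calcium exchanger, had differences of opposite sign without p65 in the 2 subsets, with no overlap in either, but the rTreg values do not show a movement. In rTregs it stood at 0.118 and 0.119 RPKM in p65-deficient cells, against 0.107 and 0.117 RPKM in WT cells, a difference of 0.016 on the log2(RPKM + 0.5) scale. In aTregs it stood at 0.982 and 1.06 RPKM in p65-deficient cells, against 1.61, 1.52 and 1.25 RPKM in WT cells, a difference of -0.366. The difference between these 2 effects was not tested. In rTregs, 2 of the 3 libraries numbered 1 share a single adjusted value of 0.107 RPKM, so values at this level carry no direction.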

How the results depend on the processing

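Under another pseudocount, filter or scaling and in the fit of only the compared groups, no listed gene changed direction except Fut10 in rTregs without p65, at -0.00014 with a pseudocount of 1. With PTXF the genes called among the 10 were 0 without a filter and 2 in the fit of only the compared groups (Ier5l and Penk). Without c-Rel in stimulated cells 3 genes in all were called without a filter and 4 in the fit of only the compared groups, none of the 10. PTXF against c-Rel-deficient cells called 2 of the 10 with a filter of 3 RPKM, where fewer of them were tested. Between p65-deficient subsets 1450 genes were called in the fit of only the compared groups. Sema6d passed there with that fit (adjusted p = 0.019), with a pseudocount of 1 (0.0467), without a filter (0.0435) and with the replicate block (0.0126). The median over the 10 genes was 2.36 with a pseudocount of 0.1 and 1.01 with 1 between p65-deficient subsets, 2.83 and 1.40 between WT subsets, and -1.74 with 0.1 between c-Rel-deficient and p65-deficient aTregs; a larger pseudocount shrinks differences of low genes by construction.

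Replicate numbers mark no shared animal or day in the labels, and any 2 groups compared share at most 2 of them, too few to establish pairs. Deviations of same-numbered libraries correlated at 0.402 for PTXF and water, -0.0653 for c-Rel-deficient cells and water, 0.115 for PTXF and c-Rel-deficient cells, 0.147 for p65-deficient subsets and 0.0437 and 0.0843 for rTregs without c-Rel and without p65. Among the described comparisons they correlated at -0.0028 and 0.0088 for WT subsets, at 0.142 and 0.324 for c-Rel-deficient and WT aTregs, and at 0.252 and 0.108 for p65-deficient and WT aTregs. With the replicate block 2 of the 10 genes were called under PTXF, 1 gene in all without c-Rel in stimulated cells, and 731 genes between p65-deficient subsets.

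Leaving out 1 library at a time gave these ranges. With PTXF against water 2217 to 3644 genes and 0 to 1 of the 10 were called, and the differences were -0.14 to 0.71 for Klrg1, -0.12 to 0.49 for Slc7a10, -0.057 to 0.64 for Fut10, -0.49 to 0.17 for Ica1 and -0.10 to 0.30 for Gucy1a3. Without c-Rel against water 0 to 280 genes and 0 to 4 of the 10 were called, with a median of -1.44 to -0.35. With PTXF against c-Rel-deficient cells 3076 to 4067 genes and 3 to 5 of the 10 were called, the median was 0.37 to 1.26, and the differences were -1.0001 to 0.85 for Penk, -0.15 to 0.75 for Slc24a3 and -0.35 to 0.051 for Gucy1a3. Between p65-deficient subsets 0 to 11 genes and 0 to 2 of the 10 were called, with a median of 1.22 to 1.44, and between WT subsets the median was 1.83 to 2.06. In rTregs without c-Rel the differences were -0.20 to 0.23 for Klrg1, -0.027 to 0.092 for Alox8, -0.71 to 0.11 for Penk, -0.029 to 0.085 for Sema6d, -0.012 to 0.051 for Slc24a3, -0.25 to 0.29 for Ica1, -0.14 to 0.23 for Gucy1a3 and -0.072 to 0.069 for Ier5l. In rTregs without p65 they were -0.16 to 0.27 for Klrg1, -0.75 to 0.22 for Penk, -0.15 to 0.15 for Fut10 and -0.0072 to 0.53 for Ica1. The cause of these changes was not tested.

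In stimulated cells low depth limits Slc7a10, Sema6d, Slc24a3, Fut10 and Ica1, whose smallest libraries hold 1 to 13 reads. In sorted cells depth is unknown, and adjusted values near or below 0 carry no level.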
